A study of Homo sapiens with 4 samples.

Results

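Liver-enriched transcription factors were examined in MHCC-97H cells, an established metastatic line of hepatocellular carcinoma (HCC), after exposure to migrasomes (Migs), the vesicle-bearing organelles that migrating cells leave on their retraction fibers. The set held 8 genes, HNF4A, FOXA1, FOXA2, FOXA3, CEBPA, CEBPB, ONECUT2 and PROX1, out of 58735 genes in the deposited tables. They were chosen by name, but with earlier results of these data known. Of the 8 genes, 6 had at least 10 reads in at least 1 library and were compared, whereas FOXA3 and PROX1 were below that level. The cells had received PBS, or 2 μg of Migs, for 24 h. The Migs came from MHCC-97H cells in normoxia (normo-Migs), from hypoxic cells of that line (hypo-Migs), or from CD147-knockout MHCC-97H cells in hypoxia (CD147KO-Migs). Normoxia as the source of normo-Migs follows the labels and the supplementary methods, whereas the main methods name hypoxia for that group, a conflict that bears on each value of hypo-Migs against normo-Migs. The knockout was in the cells that released the Migs and not in the cells sequenced, so the libraries hold no check of it. Each condition had 1 library, 4 in all, so no difference could be set against the spread between cultures. Fewer cells of a kind and less RNA per cell cannot be told apart in such bulk libraries.

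Hepatocyte identity is kept by a small network of DNA-binding factors that bind one another's promoters and those of genes for plasma proteins, lipid handling and detoxification. HNF4A is a nuclear receptor at the center of this network, and FOXA factors are forkhead proteins that open chromatin at liver enhancers. The basic leucine zipper factors C/EBPα and C/EBPβ, the latter strongly linked to the acute phase response, the CUT-homeodomain factor ONECUT2 and the homeodomain factor PROX1 also act in liver development. Loss of HNF4A and C/EBPα activity is a known feature of poorly differentiated HCC.

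The libraries held 33882496 to 40285223 reads on genes, and a count of 0 allowed at most 3 reads, or 0.0745 to 0.0885 counts per 1000000 reads on genes (CPM). Intervals of CPM are 95% Wilson intervals and intervals of ratios are exact 95% intervals, and since the reads carry no molecular identifiers, both cover counting error only. The library labelled PBS stood apart from the other 3. It had at most 3 reads on 251 genes that had at least 100 in each other library, whereas no other library had such a gene. The mitochondrial ribosomal RNA MT-RNR2 took 0.124% of its reads on genes and 1.24% to 1.37% of those of the Mig libraries. For the factors, the comparisons with PBS are therefore followed by those among the 3 Mig libraries, which do not use that library. Whether a difference from PBS came with the Migs or with that library cannot be told apart.

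The label of a liver cancer line was checked against 17 hepatocyte markers. ALB, TTR and ASGR2, which encode albumin, transthyretin and a subunit of the asialoglycoprotein receptor, had 0 reads in all 4 libraries, and 8 of the 17 markers had under 10 reads in each library. The summed CPM of the list was 1742 to 1977, and nearly all of it came from CPS1, a urea cycle enzyme with 59306 to 76879 reads. Of the secreted products on the list, albumin and transthyretin were thus not detected in any library, whereas RBP4 and VTN had reads in all 4.

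CEBPB had the highest level per gene length of the 8 factors in every library, with 59.9 to 101 FPKM (reads scaled to gene length and library size). In the PBS library ONECUT2 was next with 7.15 FPKM, before FOXA1 (3.62), CEBPA (1.40) and HNF4A (0.530), and FOXA2, FOXA3 and PROX1 were listed at 0. In each Mig library FOXA1 came after CEBPB, followed by ONECUT2 and CEBPA. HNF4A and FOXA2 came last of those detected, with FOXA2 above HNF4A only after normo-Migs (0.671 against 0.581 FPKM). The plot of CPM by library shows the separation of ONECUT2 and FOXA2 between PBS and the Mig libraries. CEBPB, FOXA1, CEBPA and HNF4A differed less between libraries, though in part beyond counting error, as given below.

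**Figure D1:**
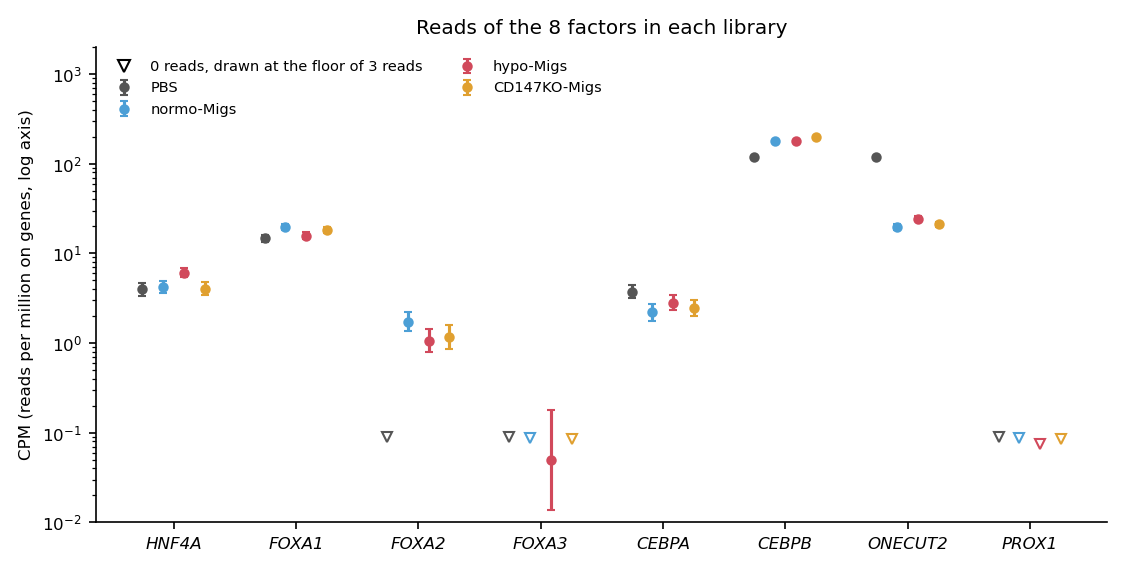
CPM of the 8 factors on a log axis in the 4 libraries (colors), with bars for 95% Wilson intervals and open triangles for 0 reads, drawn at the floor of 3 reads. ONECUT2 lay at 118 CPM with PBS and between 19.5 and 24.5 with Migs, and FOXA2 had reads in the 3 Mig libraries alone.

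HNF4A (ENSG00000101076) lies on the plus strand of chromosome 20 from 44355700 to 44434596 (hg38). It has 9 annotated transcripts, 5 that start between 44355700 and 44355805 and 4 that start between 44401270 and 44401301, so its reads pool an upstream and a downstream promoter. Both promoters are shown because HNF4A alone, of the 6 factors with a promoter window, held any of the 4 motifs searched. Each window is 300 bases of RefSeq sequence (GRCh38.p14, plus strand, 250 bases before to 50 after the start site) with motif matches in capitals. The upstream window is chr20:44355449-44355748 and the downstream window is chr20:44400989-44401288.
HNF4A upstream promoter: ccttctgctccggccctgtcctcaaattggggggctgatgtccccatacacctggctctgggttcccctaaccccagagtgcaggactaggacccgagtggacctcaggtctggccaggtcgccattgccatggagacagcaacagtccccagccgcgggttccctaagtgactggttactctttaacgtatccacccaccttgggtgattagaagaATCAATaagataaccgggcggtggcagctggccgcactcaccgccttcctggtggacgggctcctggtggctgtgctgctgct
HNF4A downstream promoter: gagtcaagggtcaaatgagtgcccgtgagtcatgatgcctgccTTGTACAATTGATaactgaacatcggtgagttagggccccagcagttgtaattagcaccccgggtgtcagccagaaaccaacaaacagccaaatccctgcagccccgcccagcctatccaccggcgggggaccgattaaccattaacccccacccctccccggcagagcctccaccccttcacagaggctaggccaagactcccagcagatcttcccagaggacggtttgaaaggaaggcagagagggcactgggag

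The motifs were searched on both strands in the letters TGTTTAC (FOXA), TTGNNCAA (C/EBP), ATCAAT (ONECUT) and CAAAGTCCA (HNF4). In the upstream window the capitals mark the ONECUT letters at position -33 from the start site. In the downstream window they mark a C/EBP match at -207 and an ONECUT match on the minus strand at -200 that overlaps it. Among 35116 RefSeq promoters of this length, 3.42% held the FOXA letters, 5.55% the C/EBP letters, 6.26% the ONECUT letters and 0.384% the HNF4 letters. The table had 8 promoters for 6 of the factors, and 0, 1, 2 and 0 of them held a match in the same order. These are matches of letters in a window and not measured binding, and absent letters say nothing of a factor. The promoter table had no entry for FOXA2 and PROX1.

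HNF4A had 134 reads after PBS, 146 after normo-Migs, 246 after hypo-Migs and 141 after CD147KO-Migs. This was 3.96 CPM (95% Wilson interval 3.34 to 4.68), 4.22 (3.59 to 4.97), 6.11 (5.39 to 6.92) and 4.02 (3.41 to 4.75) in that order. The hypo-Migs library was the highest and its interval overlapped none of the others, whereas the other three overlapped one another. The log2 fold change of hypo-Migs was 0.51 against normo-Migs (exact interval of the ratio 0.22 to 0.82), 0.60 against CD147KO-Migs (0.30 to 0.92) and 0.65 against PBS (0.35 to 0.97). The hypo-Migs library enters all 3 values, which are therefore not independent. None reached the 2-fold mark used here, and the FPKM were 0.831 after hypo-Migs and 0.530 to 0.581 elsewhere, a low level in every library. Normo-Migs and CD147KO-Migs differed from PBS by 0.14 (-0.21 to 0.49) and 0.05 (-0.30 to 0.40) on the log2 scale, differences not detectable at this depth. Its paralog HNF4G, another nuclear receptor, had 35, 44, 52 and 48 reads in the order PBS, normo-Migs, hypo-Migs and CD147KO-Migs. HNF4A made up 65.9% to 75.7% of the FPKM of the pair. The antisense gene HNF4A-AS1, inside the span of HNF4A on the opposite strand, had 0 reads in all 4 libraries.

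The 3 FOXA genes lay far apart in level. FOXA1 (ENSG00000129514; chromosome 14, 37589984 to 37596059, minus strand) had 499 reads after PBS, 678 after normo-Migs, 637 after hypo-Migs and 645 after CD147KO-Migs. Its CPM was highest after normo-Migs (19.6, interval 18.2 to 21.2) and then 18.4 after CD147KO-Migs (17.04 to 19.9), 15.8 after hypo-Migs (14.6 to 17.1) and 14.7 with PBS (13.5 to 16.1). Neighbors in this order overlapped in their intervals, whereas normo-Migs lay above hypo-Migs and PBS. Against PBS the log2 fold change was 0.46 after normo-Migs (0.29 to 0.63), 0.35 after CD147KO-Migs (0.18 to 0.52) and 0.13 after hypo-Migs (-0.04 to 0.31). With hypo-Migs, FOXA1 was lower than after normo-Migs by a log2 fold change of -0.33 (-0.48 to -0.17) and lower than after CD147KO-Migs by -0.21 (-0.37 to -0.05). FOXA1 thus lay the opposite way to HNF4A in the hypo-Migs library, by a smaller amount. TTC6 on the opposite strand shares 16 exonic bases with FOXA1 and had 12 to 35 reads.

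FOXA2 (ENSG00000125798; chromosome 20, 22581005 to 22585455, minus strand) had 0 reads after PBS, 60 after normo-Migs, 43 after hypo-Migs and 41 after CD147KO-Migs. It was detected in the 3 Mig libraries and not with PBS, where 0 reads allow up to 0.0885 CPM. Its CPM was 1.74 after normo-Migs (1.35 to 2.23), 1.07 after hypo-Migs (0.793 to 1.44) and 1.17 after CD147KO-Migs (0.863 to 1.59). Against a floor of 3 reads in the PBS library, FOXA2 was at least 20.3-fold higher after normo-Migs, at least 12.3-fold higher after hypo-Migs and at least 13.5-fold higher after CD147KO-Migs. Such bounds take the reads of the Mig library as exact, and with their counting error included the lower limits of the exact intervals were 4.00, 3.26 and 3.39 on the log2 scale, below those bounds. Among the Mig libraries, it was lower after hypo-Migs than after normo-Migs (log2 fold change -0.69, -1.32 to -0.13), and hypo-Migs and CD147KO-Migs differed by -0.12 (-0.78 to 0.53). Normo-Migs against CD147KO-Migs gave 0.57, with an interval that reached just below equal levels (-0.01 to 1.20). The level was low, with 0.408 to 0.671 FPKM. LINC00261 and LNCNEF, the long noncoding genes on either side of FOXA2 within 10000 bases, had 0 reads in all 4 libraries. AL121722.1, which shares 70 exonic bases with FOXA2 on the same strand, also had 0 reads. How reads in the shared bases were assigned is not given in the sources used here, so the count of FOXA2 is uncertain there.

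FOXA3 (ENSG00000170608; chromosome 19, 45863989 to 45873797, plus strand) had 2 reads after hypo-Migs and 0 in the other 3 libraries. It was at or under the floor everywhere, and no fold change was computed. FOXA1 therefore made up 100% of the FPKM of the 3 FOXA genes with PBS and 88.1% to 91.1% with Migs, where FOXA2 supplied 8.86% to 11.9%.

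The 2 C/EBP genes of the set differed in level and in direction. CEBPA (ENSG00000245848; chromosome 19, 33299934 to 33302564, minus strand), a single-exon gene for C/EBPα, had 127 reads after PBS, 76 after normo-Migs, 114 after hypo-Migs and 86 after CD147KO-Migs. The PBS library was highest at 3.75 CPM (3.15 to 4.46), followed by hypo-Migs at 2.83 (2.36 to 3.40), CD147KO-Migs at 2.45 (1.99 to 3.03) and normo-Migs at 2.20 (1.76 to 2.75). Neighbors in this order overlapped, and PBS overlapped neither CD147KO-Migs nor normo-Migs. Compared with PBS, the log2 fold change was -0.71 after normo-Migs (-1.15 to -0.30), -0.57 after CD147KO-Migs (-0.996 to -0.18) and -0.37 after hypo-Migs (-0.75 to 0.00). No pair of Mig libraries was separated by counting error, and the values among them lay between -0.14 and 0.34.

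CEBPA-DT, a noncoding gene 293 bases from CEBPA on the opposite strand, lay the other way. It had 7 reads after PBS, 34 after normo-Migs, 54 after hypo-Migs and 51 after CD147KO-Migs. Its log2 fold change against PBS was 2.03 (1.10 to 3.72), 2.44 (1.59 to 4.11) and 2.55 (1.70 to 4.23) in that order, so that CEBPA was lower and its divergent neighbor higher in the Mig libraries. Antisense genes listed at 0 reads in all 4 libraries cover 1141 of the 2631 exonic bases of CEBPA (43.4%). The handling of strands is not given in the sources used here, and without it reads from both strands cannot be told apart, so the level of CEBPA is uncertain.

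CEBPB (ENSG00000172216; chromosome 20, 50190734 to 50192689, plus strand), which encodes C/EBPβ, had 4050 reads after PBS, 6116 after normo-Migs, 7233 after hypo-Migs and 6991 after CD147KO-Migs. This was 119.5 CPM (115.9 to 123), 177 (173 to 182), 179.5 (175.5 to 184) and 199.5 (194.9 to 204) in that order. PBS was the lowest and CD147KO-Migs the highest, both apart from the rest, and normo-Migs and hypo-Migs overlapped. Against PBS the ratio was 1.53 after normo-Migs, 1.54 after hypo-Migs and 1.70 after CD147KO-Migs, or 0.61 (0.56 to 0.67), 0.62 (0.56 to 0.67) and 0.77 (0.71 to 0.82) on the log2 scale. Between hypo-Migs and normo-Migs the log2 fold change was 0.01 (-0.04 to 0.05). CD147KO-Migs exceeded both other Mig libraries by a small amount, with log2 values of -0.15 after hypo-Migs (-0.20 to -0.10) and after normo-Migs (-0.20 to -0.10) against it. CEBPB-AS1 on the opposite strand shares 231 exonic bases (11.8% of CEBPB) and had 23 to 38 reads.

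Within the C/EBP family, CEBPB made up 66.0% to 69.4% of the FPKM of CEBPA, CEBPB, CEBPD, CEBPE and CEBPG in every library. CEBPD, another gene of the acute phase response, had 1354 reads with PBS and 2316 to 3082 with Migs and was 19.8% of the family with PBS and between 23.6% and 26.6% with Migs. CEBPG, a C/EBP protein without its own activation domain, had 1750 reads with PBS and 1273 to 1459 with Migs, and its share was 12.6% with PBS and 5.49% to 6.40% with Migs. CEBPA supplied 1.54% of the family with PBS and 0.615% to 0.807% with Migs. The sum over the family was 90.7 FPKM with PBS and 131 to 150.3 with Migs.

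ONECUT2 (ENSG00000119547; chromosome 18, 57435685 to 57491297, plus strand), a CUT-homeodomain factor of liver, pancreas and neurons, was the factor furthest below its PBS level. It had 4012 reads after PBS, 675 after normo-Migs, 985 after hypo-Migs and 738 after CD147KO-Migs. The CPM was 118 with PBS (115 to 122), 24.5 after hypo-Migs (23.0 to 26.0), 21.1 after CD147KO-Migs (19.6 to 22.6) and 19.5 after normo-Migs (18.1 to 21.1). PBS stood far above the Mig libraries, and hypo-Migs stood slightly above the others, which overlapped each other. Relative to PBS the level was 0.170, 0.211 and 0.181 after normo-Migs, hypo-Migs and CD147KO-Migs. The log2 fold changes were -2.55 (-2.67 to -2.44), -2.24 (-2.35 to -2.14) and -2.46 (-2.58 to -2.35). With hypo-Migs ONECUT2 was higher than after normo-Migs by 0.31 (0.17 to 0.45) and than after CD147KO-Migs by 0.22 (0.08 to 0.36). Its RefSeq promoter window (GRCh38.p14, chr18:57435124-57435423, plus strand, 68.0% G and C) is printed because the gene lay furthest below PBS, and it held none of the 4 motifs.
ONECUT2 promoter: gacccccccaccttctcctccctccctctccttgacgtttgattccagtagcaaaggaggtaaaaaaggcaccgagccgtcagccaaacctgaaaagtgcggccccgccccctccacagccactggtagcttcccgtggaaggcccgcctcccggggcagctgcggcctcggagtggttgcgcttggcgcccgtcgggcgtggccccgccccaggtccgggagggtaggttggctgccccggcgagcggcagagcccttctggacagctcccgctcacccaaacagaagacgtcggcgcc

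AC090340.1, a noncoding gene 3573 bases from ONECUT2 on the same strand, lay the same way, with 43 reads after PBS, 8 after normo-Migs, 16 after hypo-Migs and 16 after CD147KO-Migs. Its log2 fold changes against PBS were -2.16 (-3.71 to -1.30), -1.52 (-2.57 to -0.79) and -1.35 (-2.38 to -0.59). The paralog ONECUT3 was lower by a smaller amount, with 511 reads after PBS, 292 after normo-Migs, 363 after hypo-Migs and 343 after CD147KO-Migs. ONECUT1, also called HNF6, had 5, 18, 16 and 10 reads in the same order. ONECUT2 supplied 79.8% of the FPKM of the 3 genes with PBS and 50.9% to 55.9% with Migs, and the sum over them was 8.96 FPKM with PBS and 2.37 to 2.68 with Migs.

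PROX1 (ENSG00000117707; chromosome 1, 213983181 to 214041502, plus strand), which marks hepatocyte precursors and lymphatic endothelium, had 0 reads in all 4 libraries, which allows up to 0.0745 to 0.0885 CPM. Its antisense neighbor PROX1-AS1 had 0 reads as well. PROX2 had 17, 21, 9 and 25 reads in the order PBS, normo-Migs, hypo-Migs and CD147KO-Migs, too few for more than a rough ratio.

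The comparison with PBS asked how the set differed after exposure to any Migs. Of the 6 factors compared, 2 were past 2-fold against PBS in each Mig library, FOXA2 higher and ONECUT2 lower. FOXA2 did not reach 2-fold on the scale of log2(FPKM + 1), where it lay at 0.74, 0.49 and 0.53 above PBS after normo-Migs, hypo-Migs and CD147KO-Migs. Among all 19895 genes compared, 30.2% were past 2-fold between normo-Migs and PBS, 30.5% between hypo-Migs and PBS, and 30.3% between CD147KO-Migs and PBS. The share of the factors, 2 of 6, was thus near the background, but it included FOXA2. With 0 reads after PBS, FOXA2 could pass the read filter only through the Mig libraries, so its higher level there was partly set by the filter. With the read minimum required in every library, FOXA2 dropped out and 1 factor, ONECUT2, was past 2-fold against PBS in each comparison. FOXA2, 1 factor, was past 2-fold higher in every Mig library, against 14.2% of all genes, which carries the same limit. ONECUT2, 1 factor, was past 2-fold lower in every Mig library, against 7.10%. In direction, HNF4A, FOXA1, FOXA2 and CEBPB were higher and CEBPA and ONECUT2 lower than with PBS in all 3 Mig libraries. The median log2 fold change of the 6 was 0.30, 0.38 and 0.20 after normo-Migs, hypo-Migs and CD147KO-Migs, beside medians of 0.03, 0.04 and 0.03 over all genes compared. FOXA2 enters each median of the 6, so these medians carry the limit of the filter too and show no shift of the set. All 3 comparisons use the same PBS library, so their likeness is not independent evidence. The summed levels of bile duct and mesenchymal markers also differed between PBS and Migs, as given further on.

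Counting error was exceeded far more often than 2-fold. The exact interval excluded equal levels for 5 of the 6 factors after normo-Migs against PBS, for 4 after hypo-Migs and for 5 after CD147KO-Migs. Among all genes this held for 70.7%, 72.1% and 70.9% of the 19895 genes.

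The comparisons among the Mig libraries concerned hypoxia and CD147 in the releasing cells. Normo-Migs and CD147KO-Migs differed in both, which cannot be told apart in that pair. None of the 6 factors was past 2-fold in any pair of Mig libraries. Over all genes, 9.34% were past 2-fold between hypo-Migs and normo-Migs, 9.12% between hypo-Migs and CD147KO-Migs, and 9.69% between normo-Migs and CD147KO-Migs. The furthest values were -0.69 for FOXA2 and 0.51 for HNF4A between hypo-Migs and normo-Migs, 0.60 for HNF4A between hypo-Migs and CD147KO-Migs, and 0.57 for FOXA2 between normo-Migs and CD147KO-Migs. The exact interval excluded equal levels for 4, 4 and 1 of the 6 factors in these pairs, beside 34.9%, 35.0% and 34.5% of all genes. HNF4A and ONECUT2 were higher and FOXA1 lower after hypo-Migs beyond counting error in both of its pairs. FOXA2 made up the 4 against normo-Migs and CEBPB the 4 against CD147KO-Migs. CEBPB was the single factor separated between normo-Migs and CD147KO-Migs. The plot of log2 fold changes sets these values on a common scale within each panel.

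**Figure D2:**
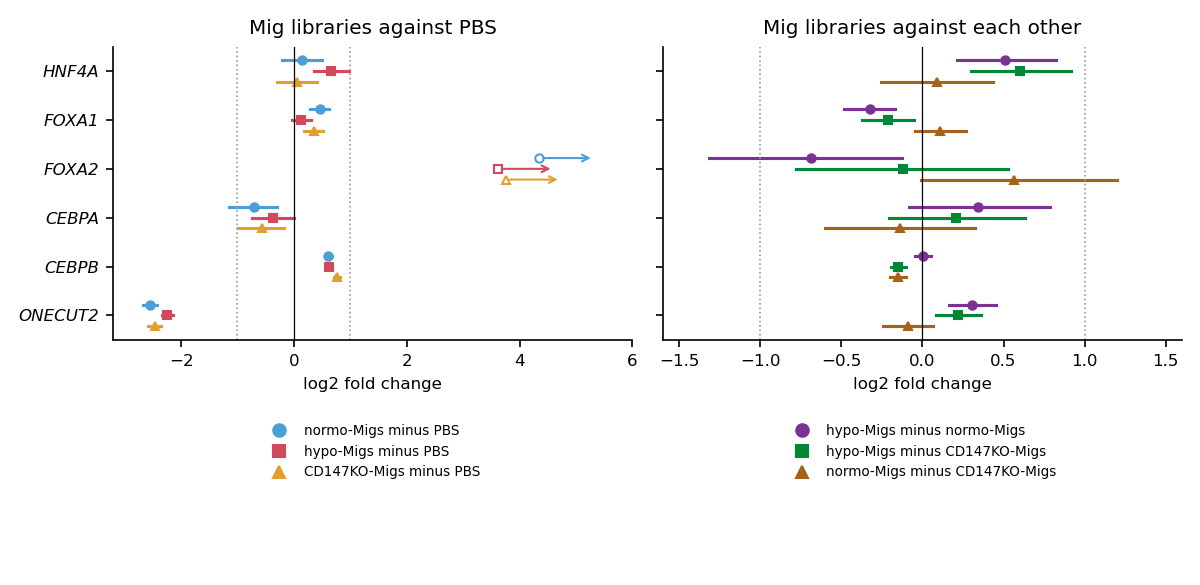
Log2 fold changes of the 6 factors compared, against PBS (left) and among the Mig libraries (right, narrower axis), with lines for exact 95% intervals of the ratio of reads and dotted lines at 2-fold. Open marks with arrows are the lower bounds of FOXA2, which had 0 reads after PBS, and no factor in the right panel has its mark beyond a dotted line.

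The deposited tables assign 1553 genes to a transcription factor family, and 1173 to 1278 of them had reads in a given library. By FPKM among them, CEBPB ranked 16 with PBS and 10, 10 and 9 after normo-Migs, hypo-Migs and CD147KO-Migs. ONECUT2 ranked 276 with PBS and 784, 724 and 763, and FOXA1 lay at ranks 476, 383, 453 and 413 in the order of the libraries. CEBPA ranked 725 with PBS and 818 to 872 with Migs, HNF4A ranked 875 to 941, and FOXA2 ranked 908 to 981 where it was detected. CEBPA, HNF4A and FOXA2 therefore lay below the middle of the ranking in each library where they had reads. Of the 1206 annotated transcription factors compared, 31.0%, 30.6% and 30.5% were past 2-fold against PBS after normo-Migs, hypo-Migs and CD147KO-Migs. Between 3.81% and 4.56% of them were past 2-fold among the Mig libraries.

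**Figure D3:**
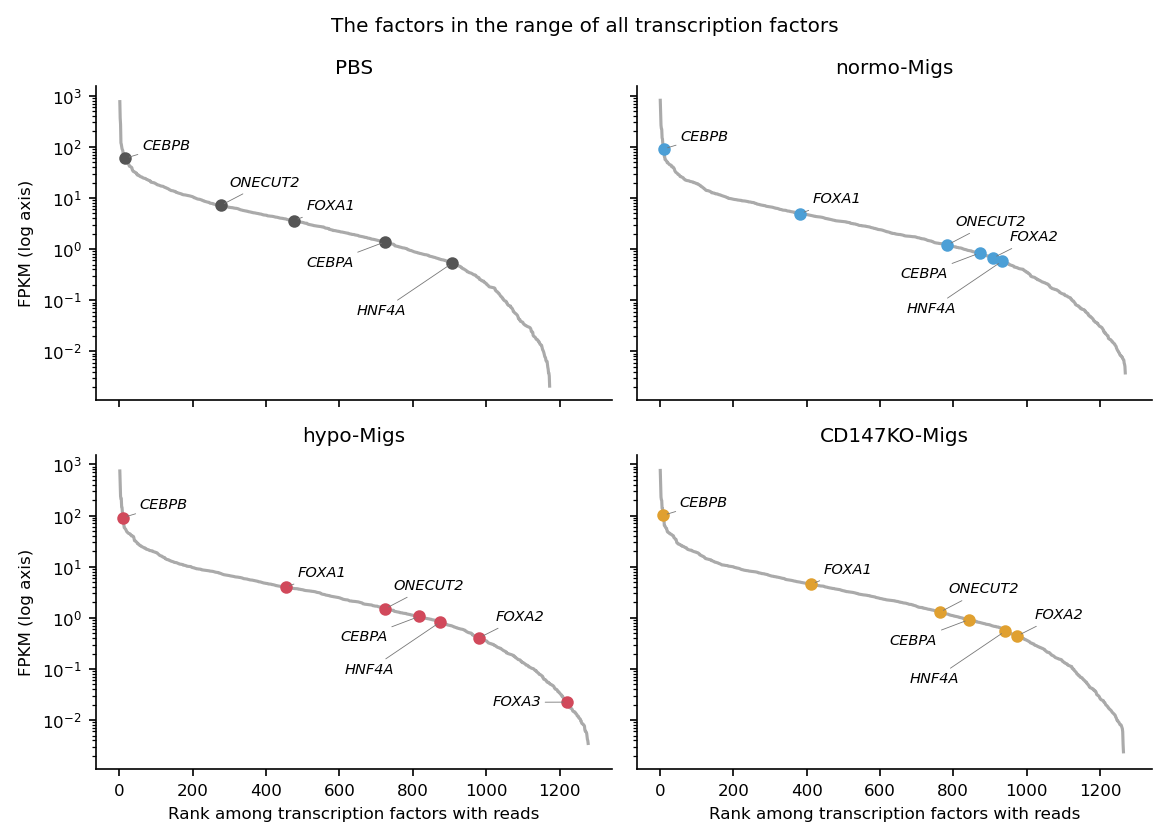
FPKM (log axis) of all annotated transcription factors with reads, ranked within each of the 4 libraries (gray line), with the liver factors marked. CEBPB is at rank 16 or better in every library, and ONECUT2 is at rank 276 with PBS and between 724 and 784 with Migs.

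In the forkhead family, 36 of 47 genes were compared, and 13, 12 and 13 were past 2-fold higher and 6, 6 and 5 lower than with PBS after normo-Migs, hypo-Migs and CD147KO-Migs. FOXA2 was thus 1 of many forkhead genes past 2-fold, and FOXA1 was not among them. Of the 7 CUT genes, all were compared, and 3, 3 and 2 were past 2-fold higher while ONECUT2 was the 1 past 2-fold lower in each. These families were chosen for description after the values were known. The plot of family make-up shows the FPKM of close relatives stacked within each library.

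**Figure D4:**
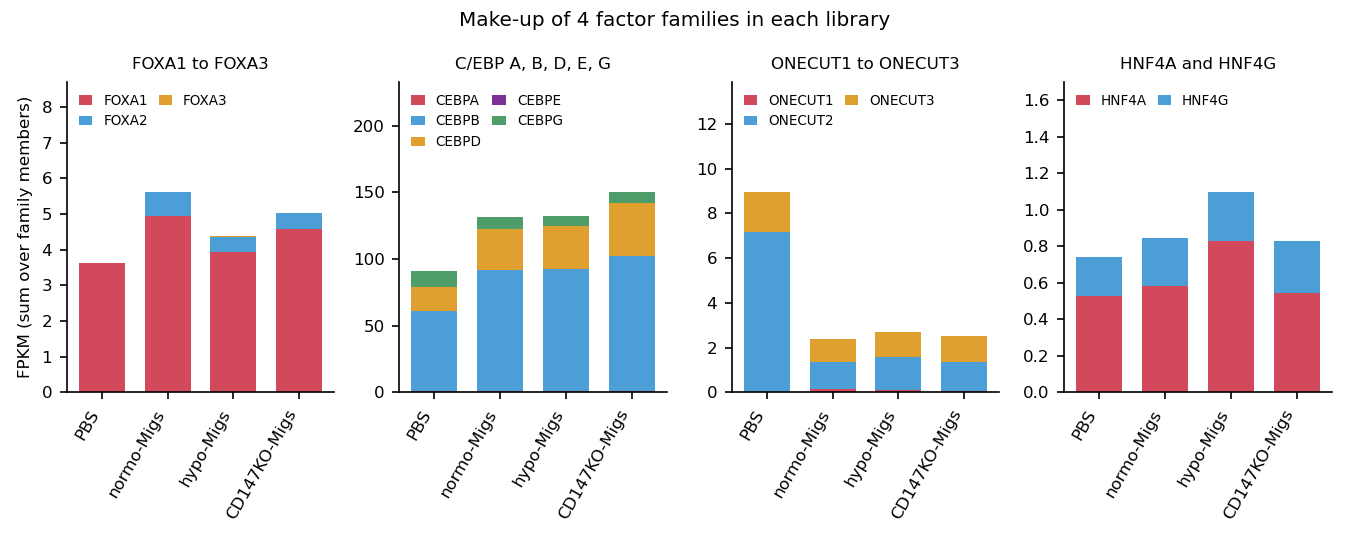
Stacked FPKM of the FOXA, C/EBP, ONECUT and HNF4 genes in the 4 libraries, each panel with its own axis from 0. The ONECUT sum is 8.96 FPKM with PBS and 2.37 to 2.68 with Migs, mostly through ONECUT2, whereas CEBPB is the largest part of the C/EBP sum everywhere.

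Other genes of the network were taken from lists written for this tissue. Beside their counts against PBS stand those over all genes, of which 18.1%, 18.9% and 18.3% were past 2-fold higher, and 2393, 2316 and 2386 of 19895 past 2-fold lower, after normo-Migs, hypo-Migs and CD147KO-Migs. Of the 8 paralogs of the factors, 7 were compared, and 1 was past 2-fold higher and 0 lower in each comparison with PBS. This was ONECUT1 after normo-Migs (log2 fold change 1.54) and hypo-Migs (1.18), and CEBPD after CD147KO-Migs (1.16). Of 25 further transcription factors that act in liver, 23 were compared. Past 2-fold against PBS, 8, 8 and 8 were higher and 2, 1 and 2 lower after normo-Migs, hypo-Migs and CD147KO-Migs. The median log2 fold change of the list was 0.33, 0.28 and 0.39. The list includes genes with 0 reads with PBS, such as NR1H4, which passed the read filter only through the Mig libraries.

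The bile acid receptor gene NR1H4 had 0 reads with PBS and 11 in each Mig library. NR2F1, an orphan nuclear receptor that binds many of the same sites as HNF4A, had 539 reads after PBS, 3638 after normo-Migs, 4433 after hypo-Migs and 3998 after CD147KO-Migs, with log2 fold changes of 2.77 (2.64 to 2.91), 2.82 (2.69 to 2.95) and 2.87 (2.74 to 3.00). CREB3L3, a membrane-bound factor of hepatocytes, was the one past 2-fold lower in all 3, with 53, 16, 18 and 8 reads in the order PBS, normo-Migs, hypo-Migs and CD147KO-Migs. NR1H4 and FOXA2 were thus liver factors with reads in the Mig libraries and none with PBS.

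Known targets of the factors were detected unevenly. Of 26 HNF4A targets, 12 had 0 reads in all 4 libraries, among them APOB, APOC3, F7, F9, CYP7A1 and G6PC, and 7 were compared. Of the 7, 4, 3 and 4 were past 2-fold higher and 3, 3 and 3 lower than with PBS after normo-Migs, hypo-Migs and CD147KO-Migs. F12, coagulation factor XII, had 232 reads with PBS and 742 to 866 with Migs. PCK1, the gluconeogenic enzyme, had 2 reads with PBS and 17, 18 and 12 after normo-Migs, hypo-Migs and CD147KO-Migs. APOM, an apolipoprotein of HDL, was lower, with 90 reads after PBS, 19 after normo-Migs, 48 after hypo-Migs and 12 after CD147KO-Migs. SERPINA1, which encodes α1-antitrypsin, had 25 reads with PBS and 2 to 10 with Migs, and CYP3A4, a drug-metabolizing enzyme, had 10 with PBS and 0 to 2 with Migs. The list therefore held genes on both sides of PBS, at low levels. Between hypo-Migs and normo-Migs, a pair in which HNF4A was separated by counting error, APOM was past 2-fold higher (log2 fold change 1.03) and SERPINA1 had 9 against 2 reads (1.29, exact interval -0.34 to 5.18).

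Of 14 FOXA targets, 7 were compared, and 4, 4 and 5 were past 2-fold higher and 2, 2 and 1 lower than with PBS in the same order. AGR2, a protein disulfide isomerase, had 0 reads with PBS and 266 after normo-Migs, 312 after hypo-Migs and 342 after CD147KO-Migs, so it was at least 89.4-fold higher. CDH1, the gene of E-cadherin, had 0 reads with PBS and 112 to 123 with Migs. IGFBP1, a hormone-regulated binding protein of insulin-like growth factors, had 37 reads after PBS, 200 after normo-Migs, 171 after hypo-Migs and 149 after CD147KO-Migs. CPS1 had log2 fold changes of -0.01, 0.13 and 0.15 against PBS.

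Of 18 C/EBP targets, 10 were compared, and 5, 5 and 6 were past 2-fold higher and 1, 1 and 1 lower than with PBS in the same order. The interleukin gene IL6 had 0 reads with PBS and 110, 181 and 180 after normo-Migs, hypo-Migs and CD147KO-Migs, which was at least 37.1-fold, 51.9-fold and 59.1-fold higher. CXCL8, a neutrophil chemokine, had 16 reads with PBS and 317 to 416 with Migs. SAA1, an acute phase protein, had 20 reads after PBS, 241 after normo-Migs, 171 after hypo-Migs and 307 after CD147KO-Migs. LCN2, lipocalin 2, was the one lower, with 415 reads after PBS, 69 after normo-Migs, 140 after hypo-Migs and 86 after CD147KO-Migs. The acute phase genes CRP, HAMP, ORM1 and ORM2 had 0 reads in all 4 libraries.

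Of 7 ONECUT targets, 3 were compared, among them HNF4A and FOXA2. Of 7 PROX1-linked lymphatic genes, 4 were compared. RELN was the one past 2-fold lower in all 3, with 22 reads with PBS and 0 in each Mig library, so it was at least 7.24-fold lower. Over the 85 genes of these lists, the factors themselves left out, 51 were compared, and 28, 25 and 28 of them were past 2-fold against PBS after normo-Migs, hypo-Migs and CD147KO-Migs, beside 30.2%, 30.5% and 30.3% of all genes. Among the Mig libraries 7, 7 and 6 were past 2-fold for hypo-Migs against normo-Migs, hypo-Migs against CD147KO-Migs and normo-Migs against CD147KO-Migs, beside 9.34%, 9.12% and 9.69% of all genes.

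Markers of hepatocytes and of other lineages also differed between PBS and Migs. Of 17 hepatocyte markers, 9 were compared, and 4, 3 and 5 were past 2-fold higher and 3, 3 and 2 lower than with PBS. Over all genes, 30.2%, 30.5% and 30.3% were past 2-fold either way in these comparisons. Some of the marker calls rested on few reads, such as AMBP with 2 to 10 and TF with 0 to 10. RBP4, the retinol-binding protein, had 33 reads with PBS and 630 to 895 with Migs, APOH had 0 and 10 to 21, and ASGR1 had 7 and 19 to 28, whereas VTN, vitronectin, had 561 with PBS and 179 to 234 with Migs. All 6 bile duct markers were compared, and 3 were past 2-fold higher and 2 lower in each comparison, beside 30.2% to 30.5% of all genes either way. KRT19 had 11287 reads with PBS and 32 to 75 with Migs, and KRT7 had 46770 and 16648 to 19191. SOX9 had 7 reads with PBS and 327 to 441 with Migs, SPP1 had 0 and 408 to 463, and EPCAM had 578 and 1451 to 1834. The summed CPM of the bile duct list was 1731 with PBS and 544 to 585 with Migs.

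Of 12 mesenchymal markers, 11 were compared, and 7 were past 2-fold higher and 0 lower in each comparison with PBS, beside 18.1% to 18.9% of all genes higher. Their summed CPM was 334 with PBS and 1316 to 1393 with Migs. Among the Mig libraries 0, 0 and 1 of the 11 were past 2-fold for hypo-Migs against normo-Migs, hypo-Migs against CD147KO-Migs and normo-Migs against CD147KO-Migs. SPARC had 0 reads with PBS and 13404 to 16845 with Migs, THY1 had 11 and 1681 to 2082, and LUM had 0 and 49 to 72. Endothelial and immune lists were near the floor, with summed CPM of 3.48 to 5.54 and 1.18 to 7.73. KDR had at most 2 reads in any library, the pan-leukocyte gene PTPRC had at most 2, and CD3E had 0 in all 4 libraries. Among those lists PECAM1 had 16 reads with PBS and 118 to 146 with Migs, TEK had 11 and 0 to 3, CD14 had 14 and 47 to 86, and CSF1R had 18 and 123 to 174. The bile duct and mesenchymal sums thus differed between PBS and Migs beside ONECUT2 and FOXA2, and their part in the differences of the factors was not tested.

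The genes with the nearest pattern over the 4 libraries were found for the factor furthest above PBS and the one furthest below, among 12187 and 12186 protein-coding candidates that averaged 50 reads or more. The measure was the Euclidean distance between centered log2 CPM. For FOXA2 they were SCG2, a secretogranin, with 4, 199, 147 and 129 reads in the order PBS, normo-Migs, hypo-Migs and CD147KO-Migs (distance 0.0962), SUSD4, a complement regulator, with 2, 98, 78 and 71 (0.252), and PLTP, the phospholipid transfer protein, with 15, 442, 410 and 414 (0.326). For ONECUT2 they were ADM, the vasodilator peptide adrenomedullin, with 2970, 547, 783 and 605 reads (0.115), ZG16B, a lectin, with 184, 25, 43 and 30 (0.176), and LGALS8, galectin 8, with 2908, 515, 643 and 560 (0.180). With 4 points each, a near pattern is mostly the step between PBS and the Mig libraries. FOXA2 had 0 reads with PBS, so the size of its step depends on the prior count, and its nearest genes rest on that value.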

How the data were processed

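RNA of 4 MHCC-97H cultures, 1 per condition, was sequenced. Normo-Migs came from normoxic cells per the labels and the supplementary methods, whereas the main methods name hypoxia. The methods describe poly-T selection and the labels a SMARTer mRNA kit. The authors deposited raw counts, the reads on each of 58735 genes without normalization, and FPKM, which the authors scaled to library size and gene length (the library size used was 0.994 to 1.02 times the reads on genes). The submitters' processing notes name CASAVA 1.8, fastp, HISAT2 2.0.5, featureCounts 1.5.0-p3 and hg38. Strand handling is not given in the sources used here. Coordinates of the factors matched GENCODE release 29.

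Reads on genes numbered 33882496 (PBS), 34559968 (normo-Migs), 40285223 (hypo-Migs) and 35043203 (CD147KO-Migs). The 19895 genes that reached 10 reads in any 1 library were scaled by TMM (1.02, 0.986, 0.996 and 0.999) in edgeR 4.0.16 (R 4.3.3). A prior count of 2 was added for log2 fold changes, and past 2-fold means an absolute value of at least 1. Intervals were the exact binomial intervals of the ratio of reads on these library sizes. Genes at 0 in 1 library were given a bound from a floor of 3 reads in that library. Python 3.11.15 was used for the rest. Scripts were checked on simulated data. The methods of the study use DESeq2, but with 1 library per condition no dispersion can be estimated, so DESeq2 1.42.0 supplied size factors as an alternative only.

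The factors and lists were chosen with earlier results of these data known. Named were the 8 factors, genes within 10000 bases of one, up to 3 list genes each way with the largest mean change among those past 2-fold in all 3 comparisons with PBS, defining markers, and the 3 nearest patterns. Other genes, the families and the motifs were chosen after values were seen. Alternatives concerned scaling, the read filter, the prior count, log2(FPKM + 1), and the fold with an adjusted p of edgeR's exact binomial test, which compares the reads of 2 libraries and not the conditions. The 3 Mig libraries alone were added after seeing the data. Some genes of the lists are not reported here by name.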

Additional observations from a re-analysis of the deposited data

How the results depend on the processing

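With DESeq2 size factors, total reads, a prior count of 0.25, or the 3 Mig libraries alone (chosen after seeing the data), no count moved by over 1.5 times. Of 162 recomputed log2 fold changes of the factors, 162 kept their sign and 153 lay within the exact interval of the main value. The other 9 were on the scale of log2(FPKM + 1), which understates low genes. For FOXA2 against PBS the interval has no upper limit, so any higher value lay within it. With a prior count of 0.25, FOXA2 moved from 5.03, 4.34 and 4.46 to 7.99, 7.28 and 7.40 after normo-Migs, hypo-Migs and CD147KO-Migs. No paired analysis was possible because each condition had 1 library and the shared replicate number leaves 1 pair.

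Counts below follow the order normo-Migs, hypo-Migs and CD147KO-Migs against PBS, then hypo-Migs against normo-Migs, hypo-Migs against CD147KO-Migs, and normo-Migs against CD147KO-Migs. On log2(FPKM + 1), 1 factor (ONECUT2) was past 2-fold against PBS in each comparison, since FOXA2 lay at 0.74, 0.49 and 0.53. All genes past 2-fold then numbered 1619, 1674, 1658, 56, 80 and 66, and list genes 10, 9, 11, 0, 0 and 0. HNF4A with hypo-Migs was 0.26 against PBS, 0.21 against normo-Migs and 0.24 against CD147KO-Migs, and ONECUT2 was -1.88, -1.71 and -1.83 against PBS.

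A minimum of 10 reads in every library left 14970 genes and removed FOXA2, so 1 factor was past 2-fold against PBS in each comparison. All genes numbered 2684, 2744, 2753, 253, 233 and 264, and list genes 12, 10, 13, 1, 2 and 0. Without a filter (31098 genes), all genes numbered 10676, 9625, 10759, 5103, 4968 and 5930, and list genes among the Mig libraries 12, 11 and 14. With the adjusted p of edgeR's exact binomial test added to the fold, all genes among the Mig libraries numbered 975, 1003 and 977, and list genes numbered 3 in the first of these pairs and 2 in the last, while the counts of factors against PBS were as in the main comparison. That test compares the reads of 2 libraries, not the conditions.

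Depth limits FOXA2, CEBPA and HNF4A, with at most 246 reads each in any library. Without replicates no spread between cultures is known for any factor.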
